A study of Rattus norvegicus with 60 samples.

Results

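Gene expression was compared in the kidney outer medulla of NOX4 knockout rats after 7 days of high salt and under control conditions. The 10 libraries were chosen by their titles, 5 after salt (HS7) and 5 controls (LS), of 60 libraries in the whole series. The series sequenced poly(A)-enriched RNA from 2 kidney regions, cortex and outer medulla, in the Dahl salt-sensitive strain (SS), an inbred model of salt-induced hypertension, and in a line bred from it that carries the Nox4 knockout (NOX4). HS7 rats had eaten a diet with 4.0% NaCl for 7 days and LS rats were controls. All 10 libraries therefore share the SS background and the Nox4 knockout, and the labels give neither the deleted part of Nox4 nor the salt content of the control diet, sex or age. The 5 NOX4 outer medulla libraries after 21 days of the same diet (HS21) and the SS outer medulla libraries at LS and HS7 (5 each) were used for reference.

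NOX4 is an NADPH oxidase abundant in the kidney that passes electrons to oxygen and releases mainly hydrogen peroxide. The outer medulla holds the medullary thick ascending limb, which reabsorbs sodium chloride through the cotransporter NKCC2 and works close to its limit of oxygen supply, together with the last segment of the proximal tubule and part of the collecting duct. In Dahl SS rats a high salt diet raises blood pressure and is followed by tubular casts, fibrosis and infiltrating leukocytes. Tubular cells rarely divide at rest and re-enter the cell cycle after injury.

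The libraries held 18309108 to 25282700 counted reads at HS7 and 15679493 to 29240291 at LS, so that a CPM of 1 (counts-per-million after scaling by the trimmed mean of M values) stood for roughly 15.7 to 29.2 reads. The tissue label was checked per gene length, in the deposited FPKM. Umod, the uromodulin gene of the thick ascending limb, had a median of 3640 FPKM at HS7 and 4380 FPKM at LS. Slc7a13, a transporter of the last proximal segment, had 1340 FPKM at HS7 and 1480 FPKM at LS, while the early proximal glucose transporter gene Slc5a2 had medians of 1.33 FPKM at HS7 and 1.57 FPKM at LS. HS7 replicate 2 departed from this with 47.4 FPKM of Slc5a2.

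HS7 replicates 3 and 4 stood apart from all other libraries before any comparison of diets. On the first principal component, which held 36.3% of the variance among the 15 NOX4 outer medulla libraries, they lay at 78.5 and 84.2, and the other 13 libraries lay between -18.9 and -3.42. In 3669 of 15246 tested genes both libraries were above all 13 others, and in 3646 genes both were below, which together made 48% of the genes. Their difference from the other 3 HS7 libraries followed gene length: the median log2 difference was 0.40 for genes under 500 bases and -0.30 for genes over 8000 bases, whereas the other 3 HS7 libraries differed from LS by -0.04 to 0.01 across the same length classes. Mitochondrially encoded genes took 13.9% and 14.7% of their reads, against 10.7% to 11% in the other HS7 libraries and 10.2% to 12.6% at LS. RNA quality was not given, and its part in these values was not tested. Fold changes and list counts below are therefore given with all 5 HS7 libraries and, for those the text turns on, again without replicates 3 and 4.

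**Figure D1:**
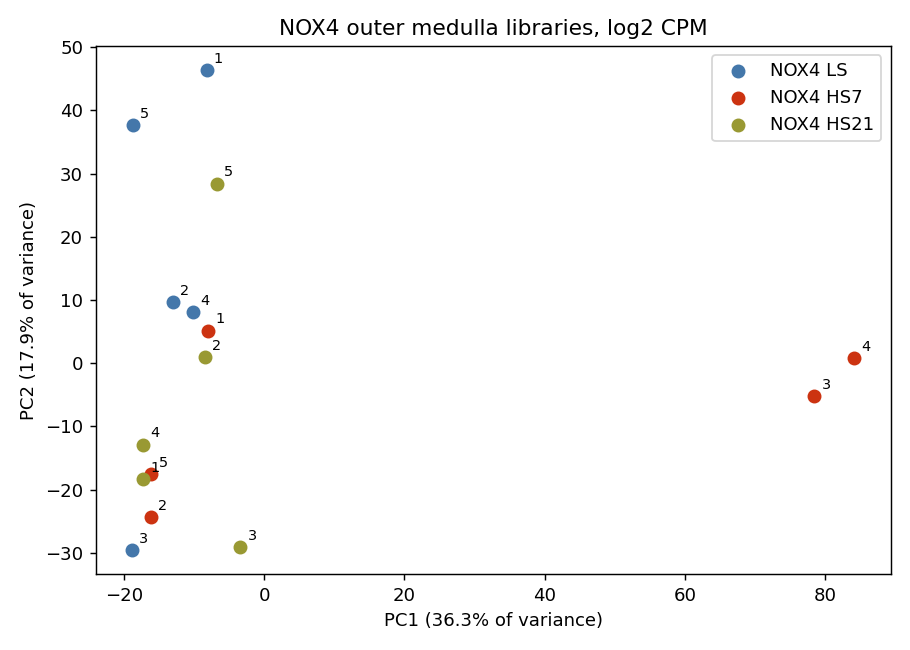
First and second principal components of log2 CPM for the 15 NOX4 outer medulla libraries, with axes in component units and points numbered by replicate. HS7 replicates 3 and 4 lie at 78.5 and 84.2 on the first component, and the 13 other libraries lie between -18.9 and -3.42.

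Nox4 itself was counted in every library. In the NOX4 outer medulla it had 2.59, 14.6, 4.22, 2.60 and 4.42 CPM in HS7 replicates 1 to 5, against 3.24, 3.03, 4.77, 9.90 and 3.40 CPM in LS replicates 1 to 5. The groups overlapped, with 1 high library in each, and the log2 fold change was 0.20 ± 0.50 (SE; edgeR, unadjusted p = 0.69, adjusted p = 0.819), and 0.52 ± 0.56 without replicates 3 and 4. Levels were also scaled over the 30 outer medulla libraries of both strains. At LS the range was then 3.13 to 10.3 CPM in NOX4 (median 3.47) and 6.35 to 13.2 CPM in SS (median 9.29). These ranges overlapped only through NOX4 LS replicate 4, as the other NOX4 LS libraries had at most 4.96 CPM. At HS7 the range was 2.63 to 15.1 CPM in NOX4 (median 4.25) and 6.46 to 111 CPM in SS (median 12.8). Nox4 levels were not tested between strains. Gene-level counts hold reads from the whole gene and do not check a deletion of part of it. HS7 replicate 2, the highest in Nox4, was also the highest in early proximal tubule genes, as Slc5a2 with 125 CPM shows.

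Across the 15246 tested genes, edgeR's quasi-likelihood test with Benjamini-Hochberg adjustment called 0 genes (0%) between HS7 and LS at an adjusted p under 0.05. The smallest adjusted p was 0.179, shared by 401 genes. At an unadjusted p under 0.05 there were 3027 genes (19.9% of those tested), of which 1859 were higher (12.2%) and 1168 lower (7.66%). In 208 genes (1.36%) all HS7 libraries were above all LS libraries, and in 93 (0.61%) all were below. Without HS7 replicates 3 and 4 the same test also called 0 genes of 15447, with a smallest adjusted p of 0.582, and 1047 genes (6.78%) had an unadjusted p under 0.05, 565 of them higher (3.66%) and 482 lower (3.12%). Leaving out only replicate 3 or only replicate 4 gave 1654 and 1564 genes at that threshold. DESeq2 called 275 genes (1.80%; 225 higher, 50 lower) with all libraries and 13 (0.0842%) without those replicates, limma's voom with sample quality weights called 0, and the authors' deposited table called 56 of 21122 genes (0.265%), 48 of them higher (0.227%) and 8 lower (0.0379%). No list below held a gene called by edgeR, so the values that follow are descriptions with unadjusted p-values.

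The genes highest at HS7 by their p-values were mostly genes of DNA replication and mitosis. Hjurp, which codes for the chaperone that loads the centromeric histone CENP-A, had 7.33, 6.18, 13.6, 15.6 and 6.39 CPM in HS7 replicates 1 to 5, against 2.68, 3.61, 4.23, 3.64 and 4.51 CPM in LS replicates 1 to 5. All HS7 libraries were above all LS libraries, with replicates 3 and 4 the highest. The log2 fold change was 1.40 ± 0.25 (edgeR, unadjusted p = 6.22e-05, adjusted p = 0.179), and 0.82 ± 0.15 without those replicates. DESeq2 gave Hjurp an adjusted p of 0.00103 with all libraries and 0.00119 without replicates 3 and 4. In the deposited annotation Hjurp lies on chromosome 9 from 95349086 to 95362014 on the minus strand, with the build not given in the sources used here.

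E2f1, a transcription factor that drives entry into DNA synthesis, had 15.2, 12.2, 12.7, 16.0 and 9.80 CPM in HS7 replicates 1 to 5, against 6.82, 6.90, 8.51, 7.98 and 8.02 CPM in LS replicates 1 to 5. Its groups did not overlap, and its log2 fold change was 0.79 ± 0.14 with all libraries (edgeR, unadjusted p = 6.34e-05) and 0.69 ± 0.15 without replicates 3 and 4. Pole2, a subunit of the leading-strand DNA polymerase epsilon, had 2.43, 1.74, 2.95, 3.10 and 1.77 CPM at HS7, against 0.559, 0.451, 1.13, 0.735 and 1.06 CPM at LS. Its log2 fold change was 1.59 ± 0.30, and 1.31 ± 0.32 without replicates 3 and 4. DESeq2 adjusted p-values without those replicates were 0.0459 for E2f1 and 0.103 for Pole2, against 0.00117 and 0.00134 with all libraries.

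Ube2c, the ubiquitin-conjugating enzyme that works with the anaphase-promoting complex, had 4.82 to 11.6 CPM at HS7 (7.43 ± 2.75, SD, n = 5) and 2.07 to 3.56 CPM at LS (2.95 ± 0.622). Tacc3, which stabilises spindle microtubules, had 10.4 to 21.9 CPM at HS7 (14.5 ± 4.53) and 6.96 to 7.71 CPM at LS (7.30 ± 0.277). The LS libraries of Tacc3 lay within 1 CPM of each other, and replicate 4 was the highest at HS7. Fap, a serine protease of activated fibroblasts, was the exception among the 6, with 1.59, 1.35, 1.72, 1.23 and 0.844 CPM at HS7, against 0.335, 0.516, 0.450, 0.735 and 0.501 CPM at LS. Log2 fold changes without replicates 3 and 4 were 0.92 ± 0.23 for Ube2c, 0.70 ± 0.16 for Tacc3 and 1.28 ± 0.30 for Fap, and with all libraries 1.32 ± 0.25, 0.99 ± 0.19 and 1.38 ± 0.27. All 3 were called by DESeq2 with all libraries, and without those replicates its adjusted p-values were 0.0912 for Ube2c, 0.0459 for Tacc3 and 0.179 for Fap.

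**Figure D2:**
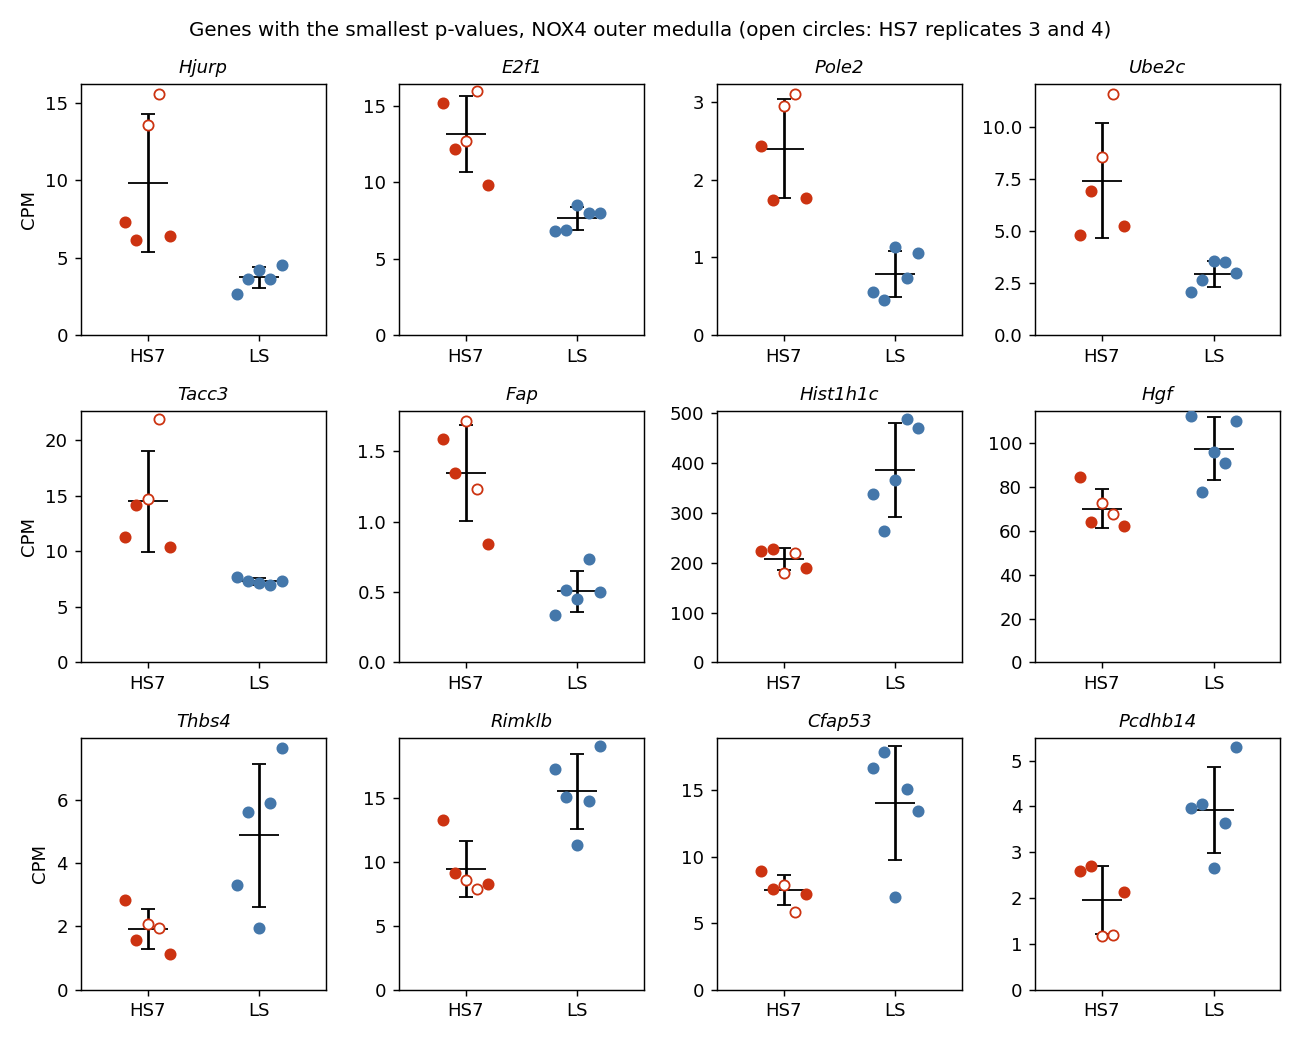
CPM of the 6 genes with the smallest p-values among higher genes (Hjurp to Fap) and the 6 among lower genes (Hist1h1c to Pcdhb14) in each HS7 and LS library, with bars for the mean ± SD of 5 libraries. Open circles are HS7 replicates 3 and 4. For Hjurp to Fap and for Hist1h1c no HS7 library overlaps the LS libraries, and for the other 5 the groups overlap.

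Cell division genes as a group showed the same direction. Of 35 listed cell cycle genes 34 matched a deposited gene, and all 34 passed the filter on low counts. Of these, 25 were higher at an unadjusted p under 0.05, against a background of 12.2% of tested genes, and 1 was lower. In 15 genes the groups did not overlap, all higher, against 1.36% of tested genes. The median log2 fold change of the 34 was 0.74, beside 0.02 over all tested genes. Without HS7 replicates 3 and 4 the counts were 23 higher and 0 lower (backgrounds of 3.66% and 3.12%), the groups of 17 genes did not overlap (background of 1.92%), and the median was 0.62, beside -0.01 over all tested genes. The list had shown a difference in these libraries before, so its count is not independent evidence of its direction.

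Genes of mitosis and general proliferation markers stood highest, among them Mki67, the proliferation marker Ki-67, with 30.1, 32.2, 39.2, 53.9 and 27.8 CPM at HS7, against 8.38, 15.6, 23.3, 15.4 and 21.9 CPM at LS. Top2a, the topoisomerase of dividing cells, had 28, 34.1, 23.2, 30.6 and 24.8 CPM at HS7, against 8.05, 14.4, 23.0, 13.9 and 19.0 CPM at LS. The Top2a groups touched almost at 23.2 and 23.0 CPM, and its log2 fold change was 0.84 ± 0.27 with all libraries and 0.88 without replicates 3 and 4. The mitotic kinesins Kif20a and Kif23 had log2 fold changes of 0.78 ± 0.15 and 0.92 ± 0.19, and the spindle checkpoint genes Bub1 and Bub1b had 0.83 ± 0.20 and 0.95 ± 0.25, all without overlap between groups. Without replicates 3 and 4 they had 0.62 and 0.80 (Kif20a, Kif23) and 0.62 and 1.01 (Bub1, Bub1b).

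Subunits of the replicative helicase were closer to LS. Mcm3 and Mcm5 had log2 fold changes of 0.65 ± 0.18 and 0.58 ± 0.19, Mcm4 and Mcm6 had 0.28 ± 0.11 and 0.31 ± 0.13, and Mcm7 had 0.18 ± 0.11 (unadjusted p = 0.123). When replicates 3 and 4 were left out, these were 0.31 and 0.41 for Mcm3 and Mcm5, 0.27 and 0.29 for Mcm4 and Mcm6, and -0.01 for Mcm7. Mcm2 had 32.2 to 47.2 CPM at HS7 and 37.8 to 47.5 CPM at LS, and Pcna, the sliding clamp of DNA polymerases, had 59.7 to 67.3 CPM at HS7 and 55.0 to 61.5 CPM at LS, so both overlapped. Ccnd1, the G1 cyclin D1, was the only listed gene lower at an unadjusted p under 0.05, with 500, 306, 291, 306 and 403 CPM at HS7, against 512, 425, 486, 448 and 510 CPM at LS (log2 fold change -0.40 ± 0.15, and -0.25 without replicates 3 and 4).

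The mean log2 CPM over the cell cycle list was 2.91 to 3.50 at LS, 3.69 to 4.13 at HS7 and 3.21 to 3.89 at HS21. Replicate 4 was the highest HS7 library, and the 3 libraries other than replicates 3 and 4 lay at 3.69 to 3.83, still above all LS libraries. The list's median log2 fold change was 0.29 at HS21 against the same LS libraries, where edgeR called 0 of 15246 genes and 581 (3.81%) had an unadjusted p under 0.05. Hjurp, for instance, averaged 3.73 ± 0.704 CPM at LS, 9.84 ± 4.47 CPM at HS7 and 4.25 ± 0.216 CPM at HS21 (SD, n = 5). Pole2 averaged 0.786 ± 0.298 CPM at LS, 2.40 ± 0.637 CPM at HS7 and 1.80 ± 0.575 CPM at HS21.

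**Figure D3:**
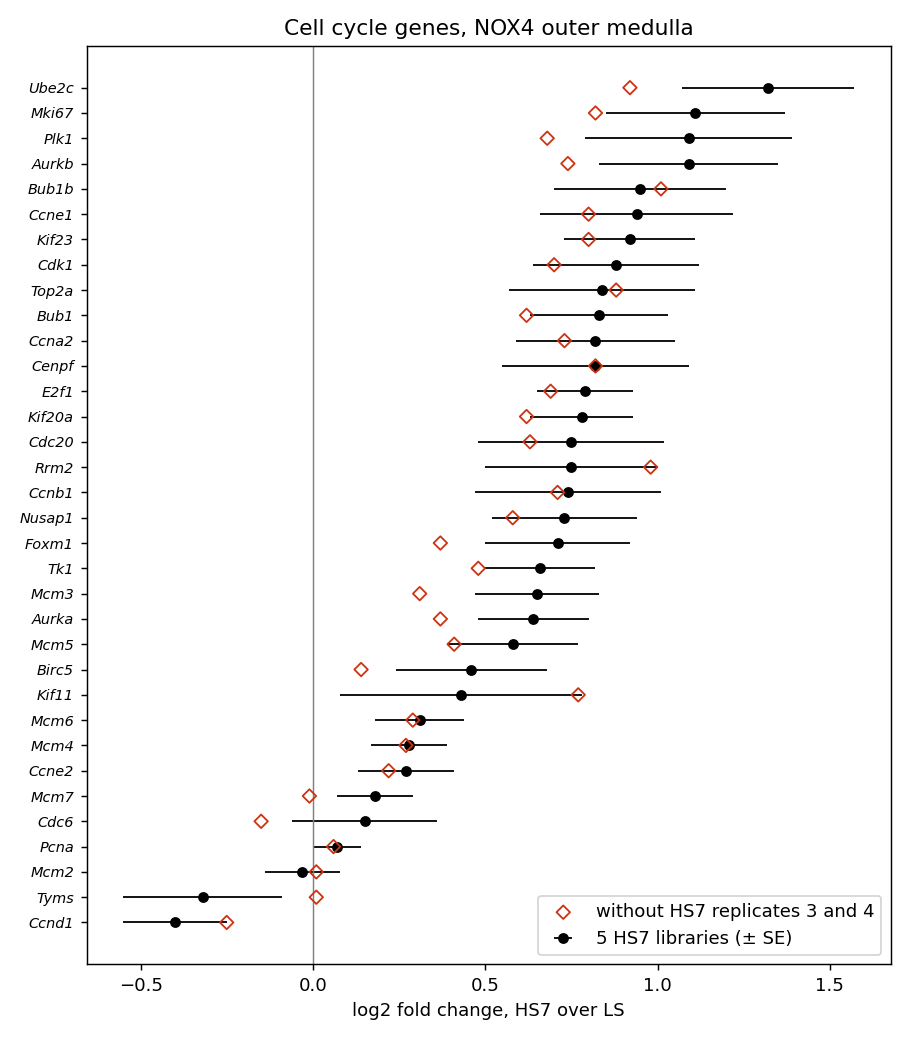
Log2 fold change of each of the 34 cell cycle genes, HS7 over LS, with all 5 HS7 libraries (black, ± SE) and without HS7 replicates 3 and 4 (open diamonds). Of the 34 genes, 31 lie above 0 by each estimate; Ube2c is the highest at 1.32 and Ccnd1 the lowest at -0.40.

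Promoter windows of 5 such genes are shown because these genes were higher together, chosen after their values were seen, and because their class of promoters is known for 3 short elements: CHR (TTTGAA) and the CCAAT box, bound by the DREAM complex and NF-Y in genes of mitosis, and the E2F element (here TTTNGCGC) in genes of DNA synthesis. Each window runs from 250 bases before to 50 after the gene start in RefSeq's annotation of GRCr8, 5′ to 3′ on the gene's strand, with matches on either strand in capitals. The windows lie at chr9:96315409-96315708 for Hjurp, chr6:93435312-93435611 for Pole2, chr14:81289649-81289948 for Tacc3, chr8:71320535-71320834 for Kif23 and chr1:199952544-199952843 for Mki67, all on the minus strand.
Hjurp: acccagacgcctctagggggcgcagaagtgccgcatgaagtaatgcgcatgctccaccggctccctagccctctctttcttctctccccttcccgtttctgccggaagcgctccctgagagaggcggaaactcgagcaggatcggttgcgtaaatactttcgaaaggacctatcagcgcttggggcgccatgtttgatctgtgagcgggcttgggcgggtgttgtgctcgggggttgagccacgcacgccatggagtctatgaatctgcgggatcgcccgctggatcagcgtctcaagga
Pole2: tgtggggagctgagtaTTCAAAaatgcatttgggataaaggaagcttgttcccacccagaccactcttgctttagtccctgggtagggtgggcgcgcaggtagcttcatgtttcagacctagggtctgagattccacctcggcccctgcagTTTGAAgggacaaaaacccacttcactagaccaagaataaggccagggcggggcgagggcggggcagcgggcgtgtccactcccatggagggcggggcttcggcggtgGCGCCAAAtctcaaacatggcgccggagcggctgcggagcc
Tacc3: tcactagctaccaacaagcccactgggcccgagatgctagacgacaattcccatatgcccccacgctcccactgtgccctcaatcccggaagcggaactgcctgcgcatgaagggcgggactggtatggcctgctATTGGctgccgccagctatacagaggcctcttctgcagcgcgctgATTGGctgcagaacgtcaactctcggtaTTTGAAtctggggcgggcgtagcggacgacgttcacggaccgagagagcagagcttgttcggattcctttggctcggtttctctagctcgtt
Kif23: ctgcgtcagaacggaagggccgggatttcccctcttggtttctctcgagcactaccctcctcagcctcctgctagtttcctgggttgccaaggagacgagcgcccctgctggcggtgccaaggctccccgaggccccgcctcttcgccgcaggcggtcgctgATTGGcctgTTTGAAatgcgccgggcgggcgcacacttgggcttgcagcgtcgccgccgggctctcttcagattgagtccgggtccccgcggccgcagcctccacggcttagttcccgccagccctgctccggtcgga
Mki67: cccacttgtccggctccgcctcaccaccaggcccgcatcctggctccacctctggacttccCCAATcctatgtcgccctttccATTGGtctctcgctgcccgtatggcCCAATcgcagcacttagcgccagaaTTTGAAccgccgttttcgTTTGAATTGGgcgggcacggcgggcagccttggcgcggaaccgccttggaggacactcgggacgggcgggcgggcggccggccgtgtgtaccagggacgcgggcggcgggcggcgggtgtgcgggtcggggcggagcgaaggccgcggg
Pole2 held 2 matches to CHR and 1 to the E2F element, Tacc3 1 to CHR and 2 to CCAAT, Kif23 1 to each of CHR and CCAAT, and Mki67 2 to CHR and 4 to CCAAT, of which 1 overlaps a CHR match. Hjurp held no match in this window, which says only that these letters are not there. Of the 34 listed cell cycle genes 24 had a window in the table. CHR was in 45.8% of them, in 11.9% of the 10406 windows of tested genes matched by symbol and in 18.3% of all 33469 windows. In the same order, CCAAT was in 70.8%, 37.2% and 37.5%, and the E2F element in 29.2%, 2.09% and 1.28%. Of the 11 windows whose genes did not overlap between groups, 7 held CHR, 7 held CCAAT and 1 held the E2F element. A match is a description of the letters, not of binding.

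Among genes lower at HS7, Hist1h1c had the smallest p. This gene of linker histone H1.2 had 224, 228, 179, 220 and 189 CPM in HS7 replicates 1 to 5, against 337, 263, 366, 489 and 471 CPM in LS replicates 1 to 5. No HS7 library reached the lowest LS library, and replicates 3 and 4 lay among the other HS7 libraries. The log2 fold change was -0.89 ± 0.15 (edgeR, unadjusted p = 2.81e-05, adjusted p = 0.179), and -0.86 ± 0.18 without replicates 3 and 4. Leaving out LS replicate 2 brought Hist1h1c to an adjusted p of 0.026, the only call by edgeR when any 1 library was left out. Most histone transcripts lack a poly(A) tail, so the level in poly(A)-enriched RNA need not follow the total.

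The other 5 lower genes overlapped between groups. Hgf, the hepatocyte growth factor that acts on epithelial cells, had 84.5, 63.8, 72.5, 67.6 and 61.9 CPM at HS7, against 112, 77.5, 96.0, 90.9 and 110 CPM at LS, a log2 fold change of -0.47 ± 0.11 (-0.48 ± 0.13 without replicates 3 and 4). Only HS7 replicate 1 reached the LS range. Thbs4, a matricellular thrombospondin, averaged 1.91 ± 0.633 CPM at HS7 and 4.88 ± 2.25 CPM at LS, and Cfap53, a cilium and flagellum protein gene, averaged 7.48 ± 1.12 CPM at HS7 and 14.0 ± 4.29 CPM at LS. For both, LS replicate 3 was the only LS library within the HS7 range. Rimklb, which codes for an amino acid ligase, and the protocadherin gene Pcdhb14 had log2 fold changes of -0.72 ± 0.18 and -1 ± 0.25, and -0.61 ± 0.20 and -0.67 ± 0.21 without replicates 3 and 4.

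Leukocyte genes were higher, but much of their difference lay in replicates 3 and 4. Of 23 tested macrophage and lymphocyte markers 14 were higher at an unadjusted p under 0.05 (background of 12.2%), 0 were lower, and the median log2 fold change was 0.46. Without those replicates 6 were higher (background of 3.66%) and the median was 0.19. Cd68, a lysosomal protein gene of macrophages, had 27.4, 32.1, 57.3, 79.7 and 28 CPM at HS7, against 23.6, 23.8, 24.1, 26.1 and 23.8 CPM at LS. The groups did not overlap, but replicates 3 and 4 were well above the other HS7 libraries, and the log2 fold change was 0.89 ± 0.25 with them and 0.25 without.

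Some other leukocyte genes kept more of their difference without replicates 3 and 4, whereas Ncf1 lost most of it. Fcgr3a, an Fc receptor of macrophages and natural killer cells, had 33.6, 51.4, 47.9, 83.2 and 32.6 CPM at HS7, against 28.5, 23.5, 29.6, 29.0 and 24.4 CPM at LS (log2 fold change 0.88 ± 0.21, and 0.53 without replicates 3 and 4). Itgam, the integrin CD11b, had log2 fold changes of 0.53 ± 0.14 and 0.40 without them, again with no overlap. Cybb, the phagocyte oxidase NOX2, had 0.37 ± 0.11 and 0.21, and its cytosolic partner Ncf1 had 1.14 ± 0.29, and 0.38 without those replicates. The summed level of the 25 matched leukocyte markers was 1600 to 3650 CPM at HS7 and 1440 to 1750 CPM at LS, with no marker at 0 in all 10 libraries. In whole tissue, more cells of a type and more RNA per cell cannot be told apart, and the part of leukocytes in the cell cycle values was not tested.

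Tubular injury genes showed a similar dependence. Of 33 tested, 15 were higher and 1 lower at an unadjusted p under 0.05 (backgrounds of 12.2% and 7.66%) with a median of 0.57. Without replicates 3 and 4, 2 were higher and 3 lower (backgrounds of 3.66% and 3.12%), with a median of 0.16. Havcr1, kidney injury molecule 1 of the proximal tubule, had 16.3, 21.5, 25.0, 35.9 and 26.1 CPM at HS7, against 2.29, 8.38, 18.0, 3.74 and 3.90 CPM at LS. Only LS replicate 3 reached the HS7 range. Its log2 fold change was 1.78 ± 0.57 (edgeR, unadjusted p = 0.00682, adjusted p = 0.185), and 1.54 without replicates 3 and 4.

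Fgb, the fibrinogen beta chain that injured tubules also express, had 2.75, 3.43, 2.50, 6.34 and 3.37 CPM at HS7, against 0.559, 0.967, 2.34, 0.700 and 0.724 CPM at LS (log2 fold change 1.78 ± 0.60, and 1.57 without replicates 3 and 4). Its groups did not overlap, with LS replicate 3 again the highest control. Lcn2, the neutrophil gelatinase-associated lipocalin, had 28, 26.1, 45.6, 74.9 and 31.8 CPM at HS7, against 25.3, 28, 22.2, 17.4 and 23.5 CPM at LS. Lcn2 was high only in replicates 3 and 4, and its log2 fold change was 0.83 ± 0.28 with them and 0.30 without. Of 34 complement and coagulation genes 12 were higher and 5 lower with all libraries (backgrounds of 12.2% and 7.66%; median 0.39), and of 35 tested without replicates 3 and 4, 3 were higher and 0 lower (backgrounds of 3.66% and 3.12%; median 0.18).

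**Figure D4:**
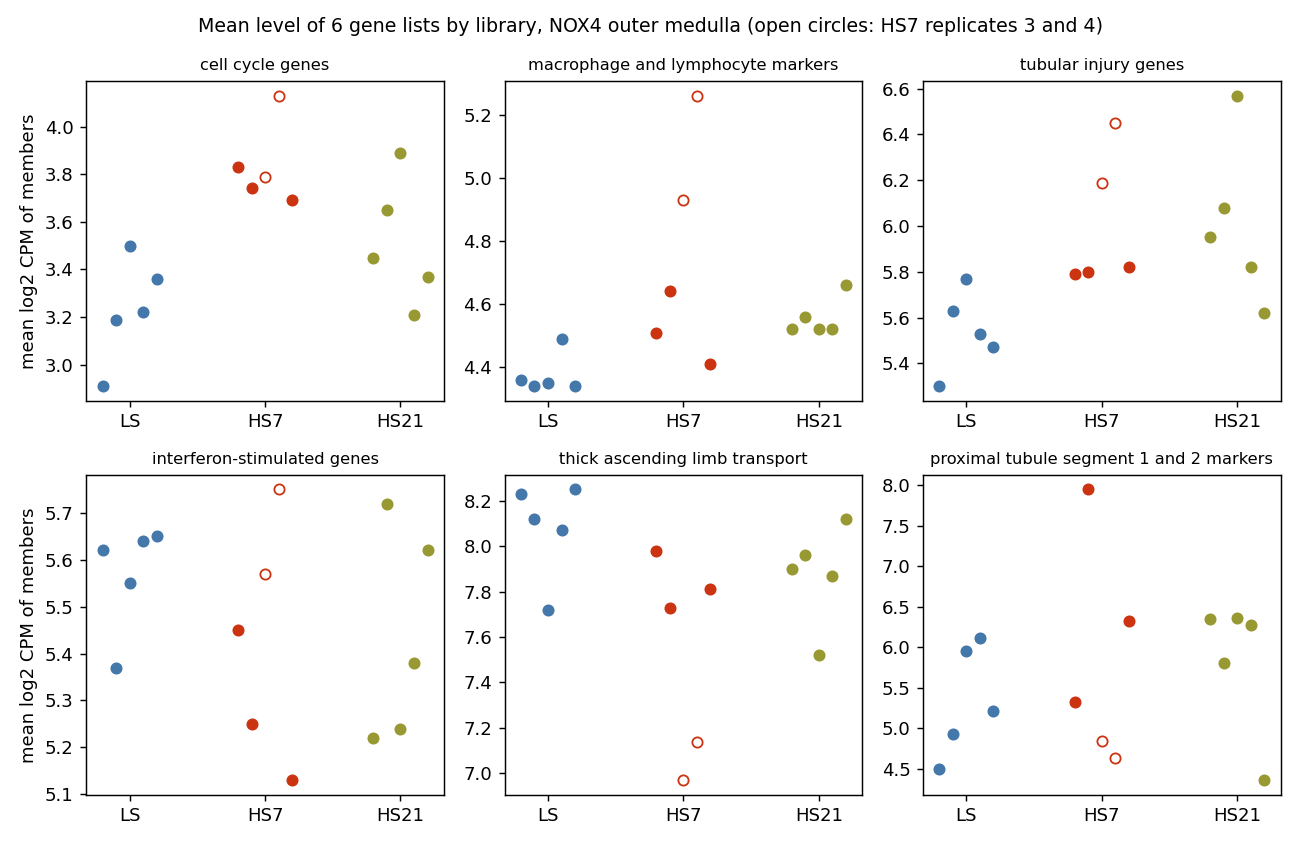
Mean log2 CPM over the members of 6 gene lists in each LS, HS7 and HS21 library of NOX4 outer medulla, with HS7 replicates 3 and 4 as open circles. The cell cycle values at HS7 (3.69 to 4.13) lie above all LS values (2.91 to 3.50), and the highest leukocyte value is that of HS7 replicate 4 at 5.26.

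Thick ascending limb genes lay below LS on average. Of 26 tested, 23 had a log2 fold change under 0, 9 were lower and 0 higher at an unadjusted p under 0.05 (backgrounds of 7.66% and 12.2%), and the median was -0.47. When replicates 3 and 4 were left out, the counts were 2 lower and 1 higher (backgrounds of 3.12% and 3.66%) with a median of -0.25. Slc12a1, the cotransporter NKCC2, had 3890, 2980, 3010, 3710 and 3800 CPM at HS7, against 5490, 5070, 2940, 4350 and 5730 CPM at LS. The groups overlapped through LS replicate 3, and the log2 fold change was -0.44 ± 0.20, and -0.41 without replicates 3 and 4.

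Egf, the epidermal growth factor precursor made in the thick ascending and distal tubule, was the only listed gene of this segment whose groups did not overlap, with 251, 196, 81.6, 114 and 275 CPM at HS7, against 363, 304, 276, 304 and 377 CPM at LS. Its log2 fold change was -0.82 ± 0.27, and -0.44 without replicates 3 and 4. Umod had 10900, 8890, 2150, 1860 and 10300 CPM at HS7, against 9440, 10700, 10500, 11700 and 13300 CPM at LS. Its low values were those of replicates 3 and 4 alone, and its log2 fold change was -0.71 ± 0.40 with them and -0.16 without. The claudin gene Cldn10 and the Bartter syndrome gene Bsnd had -0.72 ± 0.22 and -0.64 ± 0.28, and -0.46 and -0.41 without those replicates.

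Early proximal tubule genes differed mostly between single libraries. All 19 tested markers had a log2 fold change above 0 with a median of 0.70, but only 1 was higher at an unadjusted p under 0.05 (background of 12.2%). Without replicates 3 and 4, 10 were higher (background of 3.66%), with a median of 1.18. Slc34a3, a phosphate cotransporter, had 1.16, 50, 1.08, 1.00 and 6.39 CPM at HS7, against 1.29, 1.16, 1.49, 5.63 and 2.51 CPM at LS. HS7 replicate 2 carried the difference. The summed level of the list was 2600 to 9930 CPM at HS7 and 1970 to 7880 CPM at LS, and the share of cortex in a piece was not tested. Markers of the last proximal segment had a median of 0.18 over 18 genes, and 0.27 without replicates 3 and 4, with 0 at an unadjusted p under 0.05 in either direction by both fits.

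Interferon-stimulated genes tended to be lower at HS7, more so without replicates 3 and 4. The list's mean log2 CPM was 5.57 and 5.75 in replicates 3 and 4 and 5.13 to 5.45 in the other HS7 libraries. At LS it was 5.37 to 5.65, so the ranges overlapped. Of 23 tested, 8 were lower and 1 higher at an unadjusted p under 0.05 with all libraries (backgrounds of 7.66% and 12.2%; median -0.16). The count of lower genes was 5 without LS replicate 5 and 2 in the model over 30 libraries. Without HS7 replicates 3 and 4, 9 were lower and 0 higher (backgrounds of 3.12% and 3.66%; median -0.26), where the groups of 5 did not overlap, all lower, against 1.37% of tested genes. Rsad2, the antiviral enzyme viperin, had 25.9, 25.2, 23.5, 21.0 and 16.6 CPM at HS7, against 26.7, 33.3, 33.5, 33.8 and 30.7 CPM at LS, a log2 fold change of -0.50 ± 0.17. Its groups did not overlap, and the value without replicates 3 and 4 was -0.50. Ifit2 and Ifit3, which bind viral RNA, had -0.41 ± 0.12 and -0.33 ± 0.13, and -0.44 and -0.46 without those replicates. Psmb9, an immunoproteasome subunit, was the 1 higher gene, with 43.5, 37.7, 80.7, 91.8 and 31.9 CPM at HS7, against 40.4, 35.2, 39.1, 44.9 and 38.1 CPM at LS. It was high only in replicates 3 and 4 (log2 fold change 0.53 ± 0.24 with them and -0.08 without).

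Immediate early genes, transcribed within minutes of a stimulus, were high in HS7 replicates 1 and 4. Of 24 tested, 7 were higher and 1 lower at an unadjusted p under 0.05 (backgrounds of 12.2% and 7.66%) with a median of 0.54. When replicates 3 and 4 were left out, 1 was higher and 0 lower (backgrounds of 3.66% and 3.12%) with a median of 0.33. Fos had 145, 18.0, 23.7, 242 and 6.39 CPM at HS7, against 5.53, 26.5, 48.0, 4.58 and 14.8 CPM at LS. The groups overlapped, and its log2 fold change was 2.13 ± 1.04, and 1.51 without replicates 3 and 4. Egr2 and Junb showed the same 2 high libraries, with 10.3 and 28.7 CPM of Egr2 and 422 and 711 CPM of Junb in HS7 replicates 1 and 4, against at most 5.00 and 197 CPM at LS.

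Single contractile genes differed between the diets, some at low levels. Cnn1, the smooth muscle protein calponin 1, had 0.837, 1.63, 0.540, 0.456 and 1.33 CPM at HS7, against 0.0559, 0.193, 0.135, 0.105 and 0.0557 CPM at LS. Its groups did not overlap, and its log2 fold change was 3.08 ± 0.70, and 3.46 without replicates 3 and 4. At these levels LS libraries held 1 to a few reads, and the fitted size is uncertain. Acta2, smooth muscle alpha actin, had 30.7 to 45.5 CPM at HS7 and 16.1 to 31.0 CPM at LS, with a narrow overlap (log2 fold change 0.79 ± 0.22, and 0.56 without replicates 3 and 4). The 16 smooth muscle and pericyte genes had a median of -0.04, with 4 higher and 1 lower at an unadjusted p under 0.05 (backgrounds of 12.2% and 7.66%). Without replicates 3 and 4 the median was -0.05, with 4 higher and 0 lower (backgrounds of 3.66% and 3.12%).

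Genes of the respiratory chain had medians near 0 with all libraries. None of 32 nuclear complex I genes, 37 genes of complexes II to V or 11 mitochondrially encoded genes had an unadjusted p under 0.05, and their medians were 0.01, -0.02 and 0.02. When replicates 3 and 4 were left out, the medians were -0.11, -0.11 and -0.13, 0 of 32, 1 of 37 and 1 of 11 genes had a log2 fold change above 0, and 2 complex I genes and 1 mitochondrially encoded gene were lower at an unadjusted p under 0.05 (background of 3.12%). Of 27 tricarboxylic acid cycle genes 23 lay below 0 with a median of -0.20 and 3 were lower at that threshold, and of 25 glycolysis and gluconeogenesis genes 7 were lower and 1 higher (backgrounds of 7.66% and 12.2%; median -0.08). Without replicates 3 and 4 the cycle genes had a median of -0.04 with 1 lower. The glycolysis genes then had -0.05 with 2 lower and 3 higher (backgrounds of 3.12% and 3.66%). Of 31 cholesterol and fatty acid synthesis genes 9 were lower and 0 higher (backgrounds of 7.66% and 12.2%; median -0.24), among them Hmgcs1, which feeds the mevalonate pathway, with 70.8 ± 23.8 CPM at HS7 and 113 ± 39.4 CPM at LS. When replicates 3 and 4 were left out, none of those genes was lower and 1 was higher (backgrounds of 3.12% and 3.66%), with a median of -0.08. Of 51 extracellular matrix and fibrosis genes 3 were higher and 7 lower (backgrounds of 12.2% and 7.66%) with a median of -0.03, and 0 were in either direction without those replicates, with a median of -0.04. Osmolyte genes, endothelin and nitric oxide genes and circadian clock genes had medians of -0.01, 0.03 and 0.02, and -0.06, -0.02 and 0.14 without replicates 3 and 4.

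**Figure D5:**
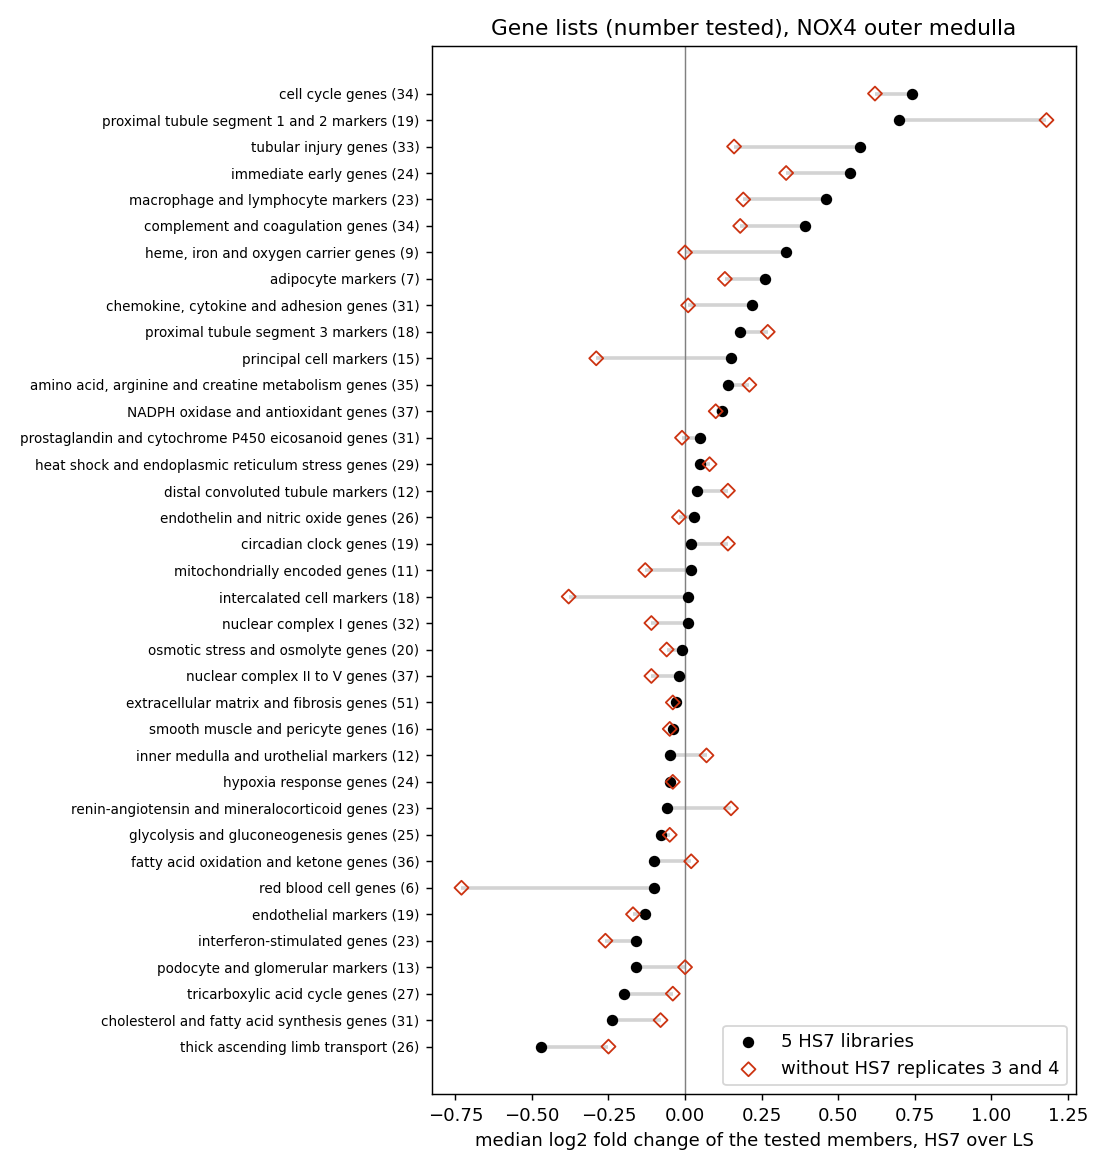
Median log2 fold change, HS7 over LS, of the tested members of 37 gene lists, with all 5 HS7 libraries (black) and without HS7 replicates 3 and 4 (open diamonds); the number tested stands beside each list. Cell cycle genes have the highest median with all libraries (0.74, and 0.62 without those replicates) and thick ascending limb genes the lowest (-0.47 and -0.25).

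Of the 56 genes called in the authors' deposited table, 55 were tested here, all 55 had the same direction and an unadjusted edgeR p under 0.05, and in 43 the groups did not overlap. In 28 of them HS7 replicates 3 and 4 were the 2 highest of the 10 libraries. The authors' deposited table called 10 members of the cell cycle list (0.265% of all genes in that table were called) and 0 of the macrophage and lymphocyte list, with Hist1h1c, Tacc3, E2f1, Ube2c and Pole2 at its smallest adjusted p of 0.00531. Leukocyte genes outside that list were among its higher calls, such as Il7r and Lilrb4 with log2 fold changes of 1.10 and 1.55 (deposited adjusted p = 0.0114 and 0.019). DESeq2 called 53 of the 56 and 14 members of the cell cycle list (1.80% of tested genes were called). The 13 genes DESeq2 called without replicates 3 and 4 included 10 of its 275, among them Mrpl53, Hjurp, E2f1, Tacc3, Hist1h1c, Cnn1, Lilrb4 and Pik3cd, and 1 member of the cell cycle list. Mrpl53 had the smallest DESeq2 adjusted p of the 13, 4.7e-05, and was high only in HS7 replicates 2 and 5.

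The salt response was also set against that of the SS rats, the strain from which the knockout came, in a model over 30 outer medulla libraries. There edgeR called 374 of 15799 genes (2.37%) between HS7 and LS in SS, 245 higher (1.55%) and 129 lower (0.817%), and 0 (0%) in NOX4. The interaction, which tests whether the responses of NOX4 and SS differ, called 0 genes (0%), with a smallest adjusted p of 0.302. At an unadjusted p under 0.05 it had 1676 genes (10.6%), 884 of them higher in NOX4 (5.60%) and 792 lower (5.01%). Without HS7 replicates 3 and 4 of NOX4 it had 778 of 16180 genes (4.81%), 370 higher (2.29%) and 408 lower (2.52%), and without only replicate 3 or only replicate 4 it had 1098 and 1059. DESeq2 called 13 genes for the interaction, and voom with quality weights 0. In 6 of the 10 SS libraries at LS and HS7 fewer than 17000 genes had a count, which sets them apart from the NOX4 libraries with 18241 to 19024.

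Cell cycle genes had a median log2 fold change of 0.74 in NOX4 and 0.32 in SS. In SS 3 of the 34 were called, all higher, beside 1.55% of tested genes. For the interaction 7 members were higher and 1 lower at an unadjusted p under 0.05 (backgrounds of 5.60% and 5.01%). Without NOX4 HS7 replicates 3 and 4 these were 3 and 0 (backgrounds of 2.29% and 2.52%). Of levels scaled over the 30 libraries, Mki67 had 28.9 to 54.5 CPM at HS7 and 8.63 to 24.2 CPM at LS in NOX4, and 20.2 to 54.9 CPM at HS7 and 26.7 to 48.9 CPM at LS in SS. E2f1 likewise had 10.2 to 16.2 CPM at HS7 and 7.02 to 8.84 CPM at LS in NOX4, and 10.3 to 17.3 CPM at HS7 and 6.59 to 21.5 CPM at LS in SS. In both genes the HS7 ranges of the strains overlapped. At LS, every SS library lay above every NOX4 library in Mki67. In E2f1 the SS LS libraries reached both below and above the NOX4 LS range. Levels at LS were not tested between strains. The interaction had unadjusted edgeR p-values of 0.0372 for Mki67 and 0.0273 for E2f1 (adjusted p = 0.437 for E2f1), and 0.168 and 0.0653 without NOX4 HS7 replicates 3 and 4.

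Havcr1 was also higher at HS7 in SS, with a log2 fold change of 2.23 (edgeR adjusted p = 0.0246), and its interaction had an unadjusted p of 0.477. Immediate early genes had a median of 0.54 in NOX4 and -0.60 in SS, and 13 of 24 were higher for the interaction at an unadjusted p under 0.05, beside 5.60% of tested genes. Without NOX4 HS7 replicates 3 and 4, 3 of 24 were higher, beside 2.29% of tested genes. Levels spread widely between libraries: Fos had 6.64 to 245 CPM at HS7 and 4.77 to 49.8 CPM at LS in NOX4, and 2.38 to 236 CPM at HS7 and 13.7 to 600 CPM at LS in SS, with the 600 CPM in 1 SS LS library. Cnn1 was at 0 reads in all 5 SS LS libraries and at 0.64 to 17.5 CPM in SS HS7 libraries.

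The 6 genes with the smallest interaction p-values were Daxx, Smek1, Mamdc4, Nasp, Wrb and Lipe, each with an adjusted p of 0.302, and of 0.934 without NOX4 HS7 replicates 3 and 4. In that order the log2 interaction estimates were 0.84, 0.60, 2.07, 0.85, -0.65 and 0.96 with all libraries. Without those replicates they were 0.64, 0.42, 1.88, 0.70, -0.59 and 0.77, with unadjusted edgeR p-values of 0.000912 to 0.0019. The genes were picked by the same test, so these p-values are not independent of the choice. Smek1, a regulatory subunit gene of protein phosphatase 4, had 61.2 to 91.7 CPM at HS7 and 62.0 to 68.1 CPM at LS in NOX4, and 64.0 to 85.2 CPM at HS7 and 89.7 to 102 CPM at LS in SS. The SS groups did not overlap, and in NOX4 only replicates 3 and 4 lay well above LS. Daxx and Nasp, both histone H3 chaperones, had log2 fold changes of 0.30 ± 0.11 and 0.30 ± 0.12 in NOX4 and -0.55 and -0.56 in SS. Without replicates 3 and 4 the NOX4 values of Daxx, Smek1, Nasp and Lipe, the hormone-sensitive lipase, were 0.07, 0.03, 0.13 and 0.25.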

How the data were processed

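Poly(A)-enriched RNA from snap-frozen outer medulla was sequenced; per the labels' protocols it was extracted with Trizol and cleaned on a column. The submitters' processing notes name HISAT2 2.0.5, StringTie 1.3.3b and featureCounts 1.5.0-p3; the genome build, strandedness and the tool behind the deposited tests are not given in the sources used here. Per the file headers, the authors deposited raw read counts and FPKM values for every library. For NOX4 HS7 with LS they also deposited log2 fold changes with p-values, raw and adjusted, and they gave each gene's length. FPKM was used only to check the tissue. Reads carry no molecular identifiers, so counts also hold amplified copies.

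The table of 32545 genes was read into R 4.3.3, and its counts were tested with edgeR 4.0.16. Of all genes 15246 passed edgeR's filter on low counts by group (filterByExpr), counts were scaled by TMM, and a quasi-likelihood F test compared HS7 with LS in a model over the 15 NOX4 outer medulla libraries, with Benjamini-Hochberg adjustment over all tested genes and calls at an adjusted p under 0.05. The interaction of salt and strain used 30 libraries and 15799 genes. The standard error is the size of the log2 fold change over the square root of F. Principal components and list means used log2 CPM with a prior count of 2. DESeq2 1.42.0 and limma 3.58.1 (voom with sample quality weights) were alternatives, as were no filter, a filter of 1 CPM in 5 libraries, DESeq2's size factors, the 10 libraries alone, a replicate block, a segment 3 covariate and leaving out each library. The edgeR test of HS7 against LS was run on simulated counts, in which no libraries stood apart as HS7 replicates 3 and 4 did. Leaving out HS7 replicates 3 and 4, with edgeR or DESeq2, and setting the authors' adjusted p-values beside the counts, were added after seeing the data. The labels do not say that libraries came from separate animals, so p-values measure the spread between these libraries, which may be technical; no 2 libraries of a group agreed within sampling noise.

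Genes were named by a rule: Nox4, called genes, filled to the 6 smallest p-values in each direction among genes with a given symbol and a mean of at least 1 CPM in a group, a set of marker genes, not all of which are reported here, and the 6 smallest interaction p-values. Further list members named in the text were chosen after their values were seen. The members and the 38 lists, which held 986 entries of which 950 matched a deposited gene, were chosen with earlier results of these data known. Promoter windows came from RefSeq's annotation of GRCr8 and were matched by symbol.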

Additional observations from a re-analysis of the deposited data

Results flagged for a closer look

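Of 106 groups of 5 libraries behind the genes and list means described above, 12 held a library whose gap to its neighbour was large for the group's range (Dixon's ratio above 0.71); chance alone gives about 1 in 20. The 12 were spread as 6 at HS7 and 6 at LS. HS7 replicate 2 stood highest in Nox4 at 14.6 CPM, in Slc5a2 at 125 CPM and in Slc34a3 at 50 CPM; Slc5a2 and Slc34a3 are early proximal tubule genes. HS7 replicate 4 stood highest in Egr2 at 28.7 CPM and in Fgb at 6.34 CPM, and HS7 replicate 1 stood highest in Rimklb at 13.3 CPM. Among controls, LS replicate 4 stood highest in Nox4 at 9.90 CPM, in Cd68 at 26.1 CPM and in the mean of the macrophage and lymphocyte markers at 4.49 log2 CPM. LS replicate 3 stood highest in Fgb at 2.34 CPM, LS replicate 5 highest in Mcm2 at 47.5 CPM, and LS replicate 1 lowest in Pcna at 55.0 CPM. HS7 replicates 3 and 4, which stood apart together on the first principal component, hide each other from a rule that looks for a single library.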

How the results depend on the processing

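The count of 0 genes called between HS7 and LS was the same with DESeq2's size factors, voom with quality weights, no filter, a filter of 1 CPM in 5 libraries, the 10 libraries alone, all 30 libraries, a segment 3 covariate and without HS7 replicates 3 and 4. It was 275 with DESeq2, 13 with DESeq2 without replicates 3 and 4, and 56 in the authors' deposited table; the cause was not tested. Leaving out 1 library gave 0 to 1 calls for HS7 against LS, the 1 being Hist1h1c without LS replicate 2, and 0 to 1 for the interaction, the 1 without SS LS replicate 1. DESeq2 gave 13 calls for the interaction, and leaving out the SS libraries with fewer than 17000 genes gave 0. Same-numbered HS7 and LS libraries had correlations of -0.10 to 0.06 and 0 of 5 were highest with their own number. These correlations do not settle whether same-numbered libraries belong together. Mean log2 CPM of the circadian clock genes was 5.22, 4.42, 4.60, 4.79 and 4.89 in LS replicates 1 to 5. At HS7 it was 5.12, 4.40, 4.57, 4.86 and 5.22, in nearly the same order. At HS21 it was 5.09, 4.52, 4.76, 4.86 and 5.04, in the same order as at LS. With a replicate block the calls were 0 for HS7 against LS and 1 for the interaction. For HS7 against LS, 3419 genes then had an unadjusted edgeR p under 0.05, beside 3027 without the block. Leaving out 1 library gave 23 to 27 cell cycle genes higher at an unadjusted p under 0.05, 8 to 14 leukocyte markers higher (8 without HS7 replicate 4; 7 with voom, 6 without replicates 3 and 4) and 5 to 8 interferon-stimulated genes lower (2 over 30 libraries). Aqp2 was 0.63 with all libraries and -0.07 with voom, and Edn1 was 0.16 and -0.25 without replicates 3 and 4. At 1 CPM and below, as for Fap and Cnn1, few reads stand behind a value.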

Other observations

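Echs1, a mitochondrial enzyme of fatty acid oxidation, had 42.9, 2.14, 90.9, 7.01 and 1.3 CPM in NOX4 HS7 replicates 1 to 5, against 1.27 to 1.76 CPM at LS, with levels scaled over the 30 outer medulla libraries. In SS it had 13.2, 0.806, 2.45, 65.2 and 1.03 CPM at HS7, against 0.657 to 1.31 CPM at LS. Mrpl53, a mitochondrial ribosomal protein gene, had 0.495, 43.4, 1.09, 0.968 and 33.1 CPM in NOX4 HS7 replicates 1 to 5, against 0.403 to 0.728 CPM at LS, and 0.242 to 2.90 CPM in SS HS7 libraries, against 0.292 to 0.485 CPM at LS in SS. Different libraries were high in the 2 genes. Both are among the 56 genes called in the authors' deposited table, which gives log2 fold changes of 4.28 for Echs1 and 4.97 for Mrpl53, and in neither gene are all 5 HS7 libraries above LS by a similar amount. Quality weights that voom estimated were 0.136 and 0.120 for HS7 replicates 3 and 4 and 0.568 to 2.61 for the other 13 NOX4 libraries.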
